A study of Mus musculus with 6 samples.

Results

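The genes described here are those of chromatin regulation and the high mobility group (HMG) proteins: histone deacetylases and sirtuins, the SWI/SNF and related SNF2 remodelling proteins, DNA methyltransferases, chromobox and Polycomb proteins, CHD remodellers, lysine demethylases, lysine methyltransferases and acetyltransferases, bromodomain proteins, and the HMGA, HMGB and HMGN families. They were chosen by symbol, from the platform annotation of an Affymetrix mouse array. A total of 80 probe sets carried exactly 1 such symbol and stood for 60 of the 8251 named genes on the array. A further 4 probe sets listed a matching symbol together with others and were given no gene name. RNA came from skin keratinocytes of K15-EGFP transgenic mice, in which the keratin 15 promoter drives enhanced green fluorescent protein (EGFP) and marks cells of the hair follicle bulge. Cells of both groups carried the transgene and were sorted as positive for α6 integrin, a surface protein of basal keratinocytes. The 3 EGFP-high samples are the bulge-enriched cells and the 3 EGFP-negative samples the other basal cells, with 1 array each. No age, strain or animal number was given, so a p-value reflects how far these samples varied, in part perhaps for technical reasons.

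DNA in the nucleus is wrapped around histones, and the proteins of these families decide how tightly. Polycomb complexes methylate histone H3 through Ezh2 or Ezh1 and read that mark through chromobox proteins, which keeps developmental genes silent. SWI/SNF complexes slide nucleosomes with the energy of ATP from 1 of a pair of alternative motor subunits, Smarca2 or Smarca4. Acetyltransferases and deacetylases add and remove acetyl groups on histone tails, and HMG proteins are small, abundant proteins that bend DNA or bind nucleosomes. In skin, Polycomb and DNA methylation are known to hold back differentiation genes in the basal layer.

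Of 49 tested genes of these families, 43 passed the threshold in neither of the fits described here, and 2 changed in the planned fit: Cbx6, a chromobox protein, rose in EGFP-high cells and Hmgn1, a nucleosome-binding HMG protein, fell. Of the 80 probe sets 59 passed the filter on low values, and they represent 49 genes. In the limma fit 2 of the 59 were higher (3.39%), both of them Cbx6, where 3.02% of all 7453 tested probe sets were higher. The single lower probe set, that of Hmgn1, made 1.69%, where 2.17% of all tested probe sets were lower. Both shares lie near the background, so the families as a whole did not stand apart by their number of calls. The median log2 difference over the 59 was -0.05, against -0.0017 over all tested probe sets, and 84.7% of the 59 differed by less than 0.5 on the log2 scale, against 82.7% of all.

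Samples of the same replicate number deviated together on these arrays, so a fit with the number as a block was read beside the planned one. With the replicate block 4 of the 59 probe sets were higher (6.78%, against 5.13% of all tested probe sets) and 3 lower (5.08%, against 5.31%). Those added were Smarca2 and Kat2b among the higher and Ezh2 and Hmgb2 among the lower. Counting arrays without a model, 7 of the 59 had every EGFP-high array above every EGFP-negative array (11.9%, against 11.6% of all) and 10 had every EGFP-high array below (16.9%, against 11.1% of all). Among the 43 genes that passed in neither fit, log2 differences ran from -0.67 for Smarcd1 to 0.47 for Kmt2e, and the 95% confidence interval lay within a 2-fold change either way for 40.

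**Figure D1:**
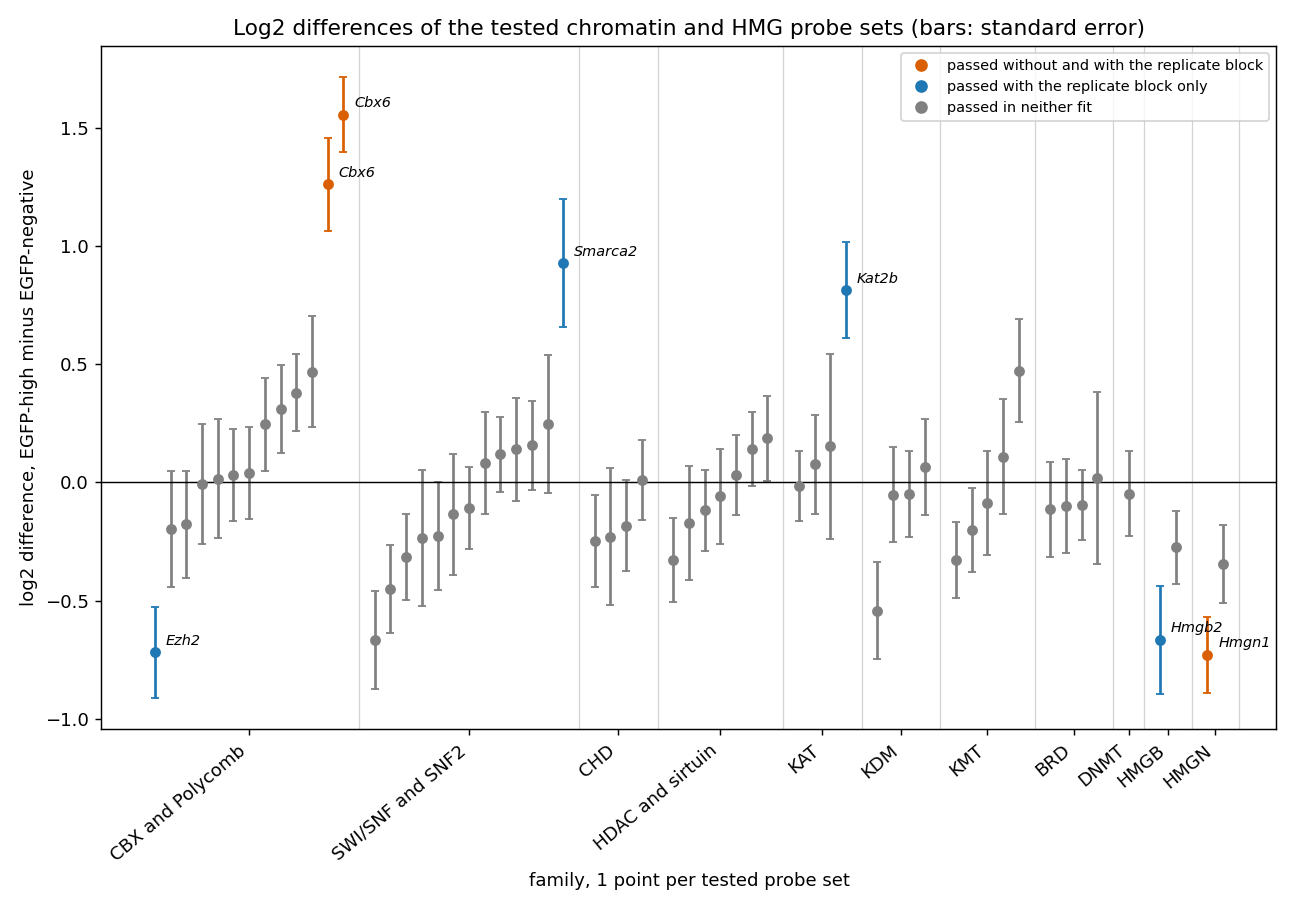
Log2 difference between EGFP-high and EGFP-negative keratinocytes (vertical axis) for each of the 59 tested probe sets, grouped by family along the horizontal axis, with the standard error of the limma fit as bars. Cbx6 and Hmgn1 passed without and with the replicate block, and Smarca2, Kat2b, Ezh2 and Hmgb2 with the block only; the remaining points lie between -0.67 and 0.47.

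Cbx6 showed the largest difference among these genes. It is a chromobox protein of the Polycomb repressive complex that binds methylated histone H3. It read 280.1, 288.1 and 332.8 on EGFP-high replicates 1, 2 and 3, and 83.1, 85.8 and 98.9 on EGFP-negative replicates 1, 2 and 3. Every EGFP-high array was far above every EGFP-negative array, with little spread inside either group. The log2 difference was 1.56 (SE 0.16, adjusted p = 0.00083, limma with Benjamini-Hochberg adjustment), from 300.3 ± 28.4 against 89.3 ± 8.45 (mean ± SD, n = 3 each). Its other probe set gave 131.5, 156.2 and 165.3 against 54.3, 39.9 and 62.1. That is a log2 difference of 1.26 (SE 0.20, adjusted p = 0.00633), so both measures of Cbx6 moved together. The first probe set carries a suffix that marks probes found in more than 1 transcript, and the other does not. Neither call was lost when any 1 of the 6 arrays was left out (adjusted p up to 0.00798 and 0.0434, both without EGFP-high replicate 3).

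The promoter windows of Cbx6 and Hmgn1, the genes called in opposite directions, and of Smarca2 and Ezh2, each 1 of a pair of alternative subunits, are shown for orientation. Each covers 250 bases before and 50 after the transcript start, from RefSeq on the GRCm38.p6 assembly, read 5′ to 3′ along the gene. Capitals mark matches on either strand to 5 motifs: the CCAAT box, the GC box GGGCGG, the TATA box TATAAA, the cell cycle element CHR (TTTGAA or TTCGAA) and the E2F site (TTTCCCGC or TTTGGCGC or TTTCGCGC). Cbx6 lies at chr15:79834284-79834583 on the minus strand, Hmgn1 at chr16:96127676-96127975 on the minus strand, Smarca2 at chr19:26604910-26605209 on the plus strand and Ezh2 at chr6:47594981-47595280 on the minus strand.
Cbx6: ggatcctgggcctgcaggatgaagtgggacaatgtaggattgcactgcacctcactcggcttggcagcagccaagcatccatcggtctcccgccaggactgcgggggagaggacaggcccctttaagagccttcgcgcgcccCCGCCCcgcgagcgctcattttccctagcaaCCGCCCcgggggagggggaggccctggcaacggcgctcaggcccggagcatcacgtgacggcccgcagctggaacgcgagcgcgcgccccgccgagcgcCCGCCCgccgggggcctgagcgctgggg
Smarca2: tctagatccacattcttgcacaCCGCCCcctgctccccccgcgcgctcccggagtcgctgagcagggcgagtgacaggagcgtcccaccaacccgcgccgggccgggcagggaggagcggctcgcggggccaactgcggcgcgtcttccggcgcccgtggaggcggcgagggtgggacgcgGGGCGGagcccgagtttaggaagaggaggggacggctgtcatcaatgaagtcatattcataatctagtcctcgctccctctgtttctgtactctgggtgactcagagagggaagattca
Hmgn1: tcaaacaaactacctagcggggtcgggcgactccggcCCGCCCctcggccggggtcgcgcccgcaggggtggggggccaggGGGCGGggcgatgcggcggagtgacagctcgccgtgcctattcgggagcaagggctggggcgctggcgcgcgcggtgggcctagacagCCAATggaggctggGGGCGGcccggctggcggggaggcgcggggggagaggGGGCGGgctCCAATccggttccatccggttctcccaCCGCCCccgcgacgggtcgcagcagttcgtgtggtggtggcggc
Ezh2: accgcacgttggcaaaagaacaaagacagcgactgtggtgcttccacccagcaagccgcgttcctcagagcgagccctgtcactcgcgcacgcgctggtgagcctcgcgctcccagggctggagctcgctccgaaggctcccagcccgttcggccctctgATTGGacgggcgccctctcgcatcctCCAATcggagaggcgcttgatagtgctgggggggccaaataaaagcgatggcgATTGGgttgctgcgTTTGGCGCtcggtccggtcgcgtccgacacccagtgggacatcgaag

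These windows are rich in G and C, at 71.7% for Cbx6, 65.7% for Smarca2, 76% for Hmgn1 and 64.3% for Ezh2, where the median over all 32851 windows was 52.7% and over the 68 windows of the member genes 61.8%. The Cbx6 window held 3 GC boxes and no CCAAT box, and the Smarca2 window 2 GC boxes and no CCAAT box. The Hmgn1 window held 5 GC boxes and 2 CCAAT boxes. The Ezh2 window held 3 CCAAT boxes and 1 E2F match, and the Hmgb2 window, at chr8:57511593-57511892, 4 CCAAT boxes, 2 CHR matches and 1 GC box. The 2 windows of Kat2b, not shown, had 47% and 48.3% G and C, under the median of all windows. Neither held a GC box, and they held 1 CCAAT box and 1 CHR match between them. RefSeq windows were found for 50 of the 60 member genes. A GC box was found in 66.2% of the member windows against 35.7% of all windows, a CCAAT box in 41.2% against 37.4%, an E2F match in 8.8% against 1.8%, a CHR match in 13.2% against 19.2% and a TATA box in 2.9% against 13.6%. A match is a description of the letters, not evidence of binding.

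The other Polycomb genes differed less, and the methyltransferases Ezh2 and Ezh1 differed in opposite directions. Ezh2, the main Polycomb methyltransferase of histone H3 in dividing cells, read 93.1, 77.3 and 111.1 on the EGFP-high arrays and 144.7, 155.4 and 201.1 on the EGFP-negative arrays. The groups did not overlap, and each EGFP-high array was below its same-numbered EGFP-negative array. The log2 difference was -0.72 (SE 0.19), with an adjusted p of 0.075 in the planned limma fit and 0.0254 with the replicate block. Ezh1, its counterpart known from resting and differentiated cells, read 191.1, 227.8 and 205.3 on the EGFP-high arrays against 153.4, 176.8 and 137.2 on the EGFP-negative arrays. These groups did not overlap either, but the log2 difference of 0.38 (SE 0.16) passed in neither limma fit (adjusted p = 0.278, and 0.158 with the block).

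Their shared partners gave no call. Eed, which binds the methylated histone and activates the enzyme, read 126 ± 17.4 against 123 ± 25.7 in EGFP-negative cells (log2 0.04, 95% confidence interval -0.40 to 0.48). Suz12, the scaffold of the complex, had a log2 difference of 0.31 on the probe set used for the gene and -0.18 on another, neither called. Bmi1, a core protein of the other Polycomb complex, read 167.2, 206 and 248.5 against 162.1, 178.6 and 99, so the groups overlapped (log2 0.47, SE 0.23, adjusted p = 0.363). Among the other chromobox genes, Cbx1 and Cbx5, which bind the heterochromatin mark, had log2 differences of -0.01 and 0.03, and Cbx2, a Polycomb chromobox protein, 0.25. Cbx7 was below the filter. Of the 13 tested probe sets of this family, 2 were higher in the limma fit, both of the single gene Cbx6, and 0 lower, where 3.02% and 2.17% of all tested probe sets were.

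In the SWI/SNF and SNF2 family 0 of 13 tested probe sets passed in the planned limma fit, where 3.02% of all were higher and 2.17% lower, and Smarca2 was added as higher with the replicate block, where 5.13% of all were higher. At an unadjusted p under 0.05 there were 1 higher and 2 lower, where 8.47% and 8.68% of all were. Smarca2, the alternative motor subunit also called Brahma, read 319.1, 521.9 and 679 on EGFP-high replicates 1, 2 and 3 and 190.8, 276 and 279.2 on EGFP-negative replicates 1, 2 and 3. All EGFP-high arrays were above all EGFP-negative arrays, but replicate 1 of the EGFP-high group was only just so. The log2 difference was 0.93 (SE 0.27, adjusted p = 0.101 in the planned limma fit, 0.0067 with the block). In the planned fit it passed without EGFP-high replicate 1 (1.22, adjusted p = 0.0146) and without both arrays of number 1 (1.05, adjusted p = 0.0224). It did not pass with any of the other 5 arrays left out singly (adjusted p 0.157 to 0.301, the highest without EGFP-high replicate 3, where the difference was 0.69).

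Smarca4, the other motor subunit, also called Brg1, read 319.3, 383 and 305.9 on the EGFP-high arrays against 481.5, 556.8 and 373.4 on the EGFP-negative arrays. Each EGFP-high array was below its same-numbered partner, although the groups overlapped. The log2 difference was -0.45 (SE 0.19, adjusted p = 0.255, and 0.076 with the block, limma). Smarcd1, an accessory subunit, read 32.4, 35.5 and 39.3 against 67.2, 60.4 and 77.2, with no overlap (log2 -0.67, SE 0.21, adjusted p = 0.125). Its EGFP-high mean of 35.7 lay under the filter level of 44.5 and 1 of the 3 EGFP-high arrays was within the range of the bacterial control probe sets, so the size of this difference depends on the pseudocount. The core subunits Smarcb1 and Smarcc1 had log2 differences of -0.23 and -0.24 with wide spreads, and Smarce1, a subunit with an HMG domain, 0.16. Smarca5, the motor of a different remodelling complex, read lower on all EGFP-high arrays on 1 of its tested probe sets (72.6 ± 10.8 against 94.6 ± 4.76, adjusted p = 0.443) and overlapped on the other.

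**Figure D2:**
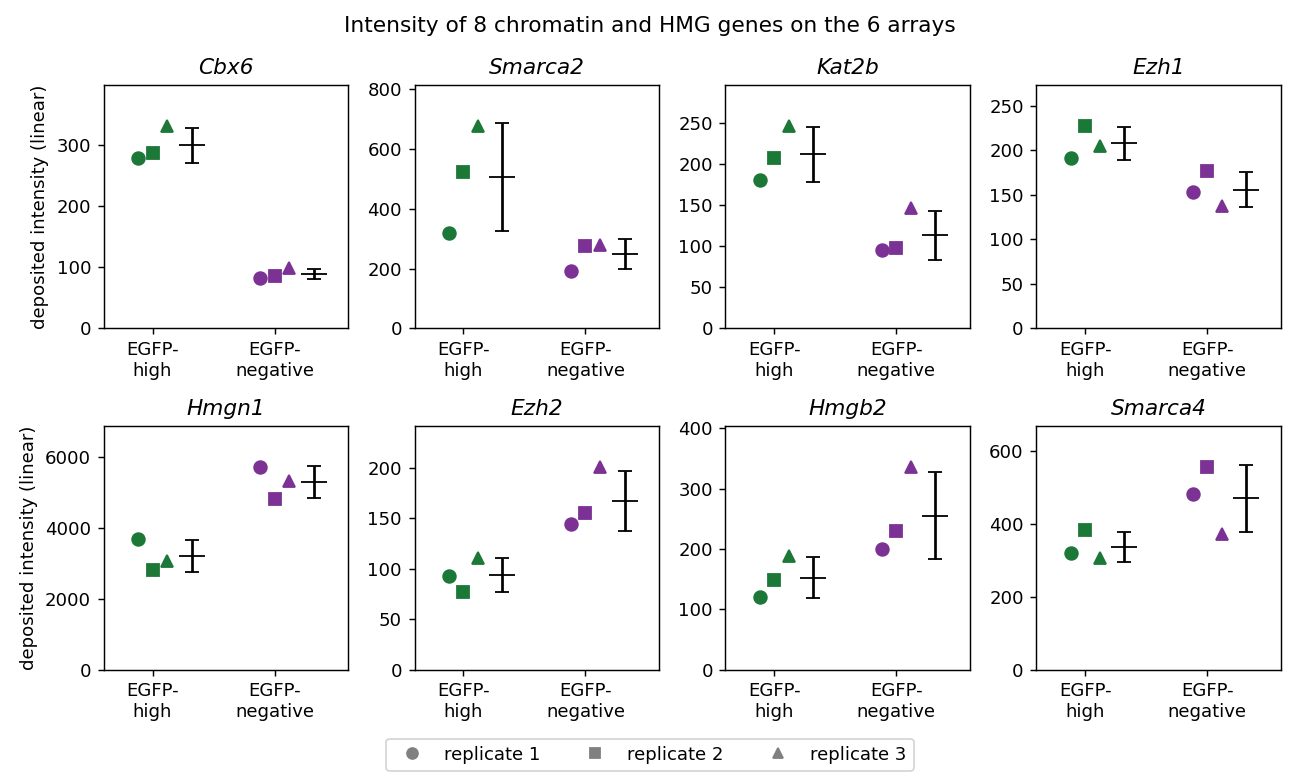
Deposited intensity on a linear scale (vertical axis, from 0) of 8 chromatin and HMG genes on each of the 3 EGFP-high (green) and 3 EGFP-negative (purple) arrays, with the mean and SD in black and the replicate number as the marker shape. Cbx6, Smarca2, Kat2b and Ezh1 were higher on every EGFP-high array, Hmgn1, Ezh2 and Hmgb2 lower on every one, and the groups of Smarca4 overlapped.

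Because Smarca2 and Smarca4, and Ezh1 and Ezh2, are alternative forms of the same part of a complex, the log2 ratio of the 2 probe sets was taken within each array. This shows whether the genes of a pair changed unequally, not the ratio of their transcripts. The pairs were chosen after the values were seen, 6 in all, with Kat2b and Kat2a, Hdac1 and Hdac2, Kdm3b and Kdm3a, and Kmt5c and Kmt5a as the other four.

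The Smarca2 to Smarca4 log2 ratio was -0.00085, 0.43 and 1.10 on EGFP-high replicates 1, 2 and 3 and -1.25, -0.96 and -0.40 on EGFP-negative replicates 1, 2 and 3. Every EGFP-high array was above every EGFP-negative array. The change was 1.38 (SE 0.41), and between same-numbered arrays it stayed within 1.25 to 1.498. Over the pseudocounts, scalings and left-out arrays tried it ran from 1.085 to 1.64. The Ezh1 to Ezh2 log2 ratio was 0.90, 1.35 and 0.78 against 0.07, 0.17 and -0.49, again without overlap. Its change was 1.10 (SE 0.27), with 0.83 to 1.28 between same-numbered arrays. For both pairs the exact two-sided permutation test over the 6 arrays gave p = 0.1, the smallest that 3 against 3 allows. Benjamini-Hochberg adjustment over the 6 pairs gave 0.3. For none of the 6 pairs can this test decide whether the ratio changed, because its smallest p lies above the threshold used here. The pairs were also chosen from these same values, and adjustment over the 6 does not correct for that choice.

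The other four pairs overlapped between groups. The change of the log2 ratio was 0.66 (SE 0.53) for Kat2b to Kat2a, 0.49 (SE 0.39) for Kdm3b to Kdm3a, 0.24 (SE 0.23) for Kmt5c to Kmt5a and 0.21 (SE 0.22) for Hdac1 to Hdac2, with exact permutation p-values of 0.3 to 0.4. Between same-numbered arrays the lowest change was -0.49 for Kat2b to Kat2a, on the arrays of number 3. It was -0.31 for Kdm3b to Kdm3a and -0.10 for Hdac1 to Hdac2, so these pairs did not change in 1 direction throughout. For Kmt5c to Kmt5a the changes ran from 0.13 to 0.40.

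**Figure D3:**
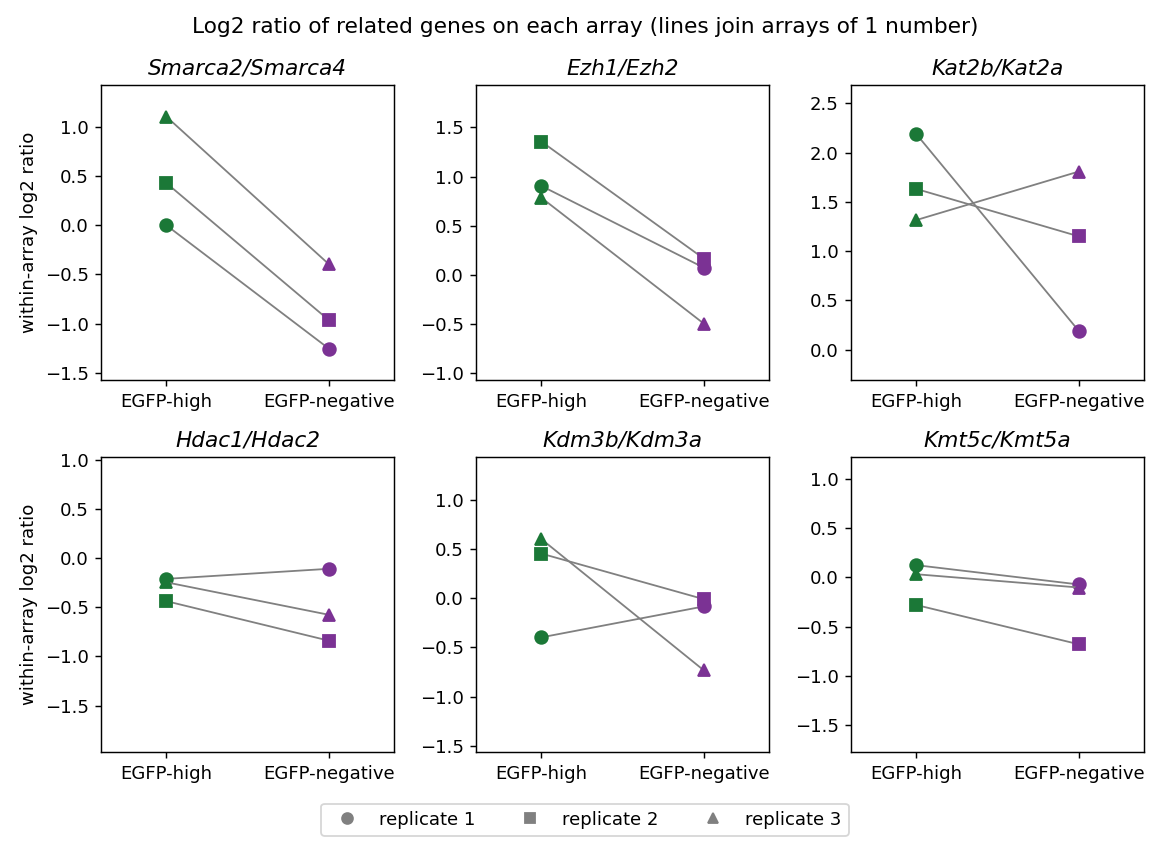
Within-array log2 ratio of the 2 genes of each pair (vertical axis, all panels spanning the same range) on the EGFP-high (green) and EGFP-negative (purple) arrays, with lines joining arrays of the same replicate number. For Smarca2/Smarca4 the 3 lines run nearly parallel, falling by 1.25 to 1.498, and for Ezh1/Ezh2 all 3 fall as well. In the panels of Kat2b/Kat2a, Kdm3b/Kdm3a and Hdac1/Hdac2 not all lines fall.

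The 4 tested HMG genes with a probe set of their own were lower on every EGFP-high array than on every EGFP-negative array, as were 11.1% of all tested probe sets, and Hmgn1 passed the test. A probe set that lists Hmgb1 together with another symbol overlapped between the groups, at 607.3, 556.3 and 627.6 against 856.6, 626.7 and 613.7 (log2 -0.21, SE 0.17, adjusted p = 0.622). Hmgn1, which binds nucleosomes and loosens their packing, read 3697.9, 2816.2 and 3076.6 on the EGFP-high arrays and 5729.7, 4825.7 and 5315 on the EGFP-negative arrays. The gap between the groups was wider than the range inside either. The log2 difference was -0.73 (SE 0.16, limma adjusted p = 0.0344, and 0.00271 with the block), from 3197 ± 453 against 5290.1 ± 453 (mean ± SD, n = 3 each). This call depended on single arrays: it was lost without any 1 of the arrays other than EGFP-high replicate 1 (adjusted p 0.0738 to 0.159), and quantile normalization reduced the difference to -0.40 (adjusted p = 0.186). Hmgn5, a relative that binds the same site of the nucleosome, read 291, 214.8 and 268.9 against 312.9, 350 and 331.5 (log2 -0.35, SE 0.16, adjusted p = 0.338).

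Hmgb2, a DNA-bending protein known for its high level in dividing cells, read 120.4, 148.4 and 188.9 on the EGFP-high arrays against 200.6, 229.3 and 336.5 on the EGFP-negative arrays. The groups did not overlap, and EGFP-high replicate 3 came close to EGFP-negative replicate 1. The log2 difference was -0.67 (SE 0.23, limma adjusted p = 0.161, and 0.0224 with the block), on a probe set of a type that follows relaxed design rules. Hmgb3, a close relative, read 338.1, 356.4 and 281.3 against 412.4, 388.9 and 385.7 (log2 -0.27, SE 0.15, adjusted p = 0.432). Hmga2, which binds AT-rich DNA, and Hmgb4 were below the filter, at 6.2 to 21 and 5.4 to 24.7.

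Kat2b was the acetyltransferase with the largest difference. Kat2b, also called PCAF, read 181.5, 207.4 and 247.5 on the EGFP-high arrays and 95.1, 97.6 and 147.4 on the EGFP-negative arrays. No arrays overlapped, and the log2 difference was 0.82 (SE 0.20, limma adjusted p = 0.0569, and 0.012 with the block). Its other probe set was below the filter, at 27.3 to 37.5. Kat2a, its close relative GCN5, varied widely inside both groups, from 24.8 to 87.9 and from 28.3 to 81.1 (log2 0.15, SE 0.39). Kat7, an acetyltransferase of replication origins, read 364 ± 26 against 368 ± 27.3 (log2 -0.02).

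Among deacetylases and sirtuins 0 of 7 tested probe sets passed in the limma fit, with 0 also at an unadjusted p under 0.05, and log2 differences ran from -0.33 to 0.19. With 3.02% of all tested probe sets higher and 2.17% lower, and 8.47% and 8.68% at the unadjusted p, a count of 0 of 7 does not set this family apart. Hdac2 had the largest. It is a class I deacetylase of the NuRD and Sin3 complexes, and it read 269.7, 284.1 and 242.5 on the EGFP-high arrays against 302.6, 417.4 and 303.9 on the EGFP-negative arrays (log2 -0.33, SE 0.18, adjusted p = 0.404). These groups did not overlap. Hdac1, its partner, read 212 ± 15.8 against 234 ± 41.5 (log2 -0.12, 95% confidence interval -0.51 to 0.27). Hdac7, a class II deacetylase, read 385.5, 553.2 and 499.4 against 375.9, 408.8 and 463 with overlap (log2 0.19, adjusted p = 0.672). Hdac6, a cytoplasmic deacetylase of tubulin, was slightly above on every EGFP-high array (306 ± 9.7 against 277 ± 33.1, log2 0.14, adjusted p = 0.717). Sirt1 and Sirt3 were below the filter.

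The demethylases, methyltransferases, CHD and bromodomain genes gave no call in either fit, on 4, 5, 4 and 4 tested probe sets. Of all tested probe sets 3.02% were higher and 2.17% lower in the planned limma fit, and 5.13% and 5.31% with the block. Counts of 0 among so few probe sets do not set these families apart. Kdm3a, a demethylase of histone H3 that is induced by low oxygen, read 228.8, 166.5 and 152 on the EGFP-high arrays and 246.7, 238.6 and 336.2 on the EGFP-negative arrays, without overlap (log2 -0.54, SE 0.20, limma adjusted p = 0.205, and 0.137 with the block). Kdm1a, also called LSD1, and Kdm6a, which removes the Polycomb mark, had log2 differences of 0.07 and -0.05. Kmt2e read 431.9, 633.4 and 636.6 against 332.5, 369.1 and 509.4 with overlap (log2 0.47, SE 0.22, adjusted p = 0.316, and 0.0781 with the block). Kmt5a, which places the first methyl group on a lysine of histone H4, was lower on every EGFP-high array (171 ± 18.2 against 220 ± 19.8, log2 -0.33, adjusted p = 0.349). The 4 CHD probe sets had a median log2 difference of -0.21. Chd4, the motor of the NuRD complex, read 1386, 939.7 and 1444.1 against 1729.8, 916.1 and 1921.4, where the spread inside the groups exceeded the difference between them (log2 -0.23), on a probe set whose suffix marks probes found in related sequences. Chd7, a remodeller of enhancers, had a log2 difference of -0.25 and Brd1, a bromodomain protein of acetyltransferase complexes, -0.11.

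Dnmt1, which copies DNA methylation after replication, read 406.5, 437.1 and 459.9 on the EGFP-high arrays and 364, 549.7 and 452.5 on the EGFP-negative arrays. The EGFP-high values lay inside the range of the others (log2 -0.05, 95% confidence interval -0.45 to 0.36, limma adjusted p = 0.93). Its other probe set was below the filter and read higher on every EGFP-high array, at 42.6, 76.8 and 50.2 against 39, 26.3 and 38.9, so the probe sets of Dnmt1 did not move alike. Dnmt3a, a methyltransferase of new sites, was below the filter on both of its probe sets, at 1.3 to 15.8. Smarcd2, a SWI/SNF subunit read by several probe sets, had log2 differences of -0.11, 0.12 and 0.08 on the 3 tested ones. All 3 carry a suffix that marks probes found in related sequences or relaxed design rules. Its probe set without such a suffix was below the filter, at 12.4 to 22.5, so the tested signal may not be that of Smarcd2 alone. Of 9 genes with several tested probe sets, 4 had the same sign on all.

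Of the 80 probe sets 21 were below the filter and were not tested, and they left 11 genes without a test: Brd3, Cbx7, Chd1l, Dnmt3a, Sirt1, Sirt3, Hmga2, Hmgb4, Kdm5a, Kdm5b and Kdm5d. Their values on single arrays lay between 0.3 and 76.8 over all 21 probe sets. The 4 probe sets with several symbols were tested and 0 passed in the limma fit. One of them had every EGFP-high array below every EGFP-negative array, at 294, 316.4 and 402.3 against 636, 428.7 and 515 (log2 -0.61, SE 0.19, adjusted p = 0.131, and 0.0627 with the block). The other 3 had log2 differences between -0.21 and 0.08.

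Among the genes that work with these families Satb1 was called lower. Uhrf1 was also called lower, on a probe set tested only because of its EGFP-negative values. Of 41 tested chromatin partners, which include subunits of corepressor, Polycomb, SWI/SNF and methyltransferase complexes, 0 were higher and 2 lower in the limma fit (4.88% lower, against 2.17% of all tested probe sets), also with the block (against 5.31%), with a median log2 difference of -0.02. At an unadjusted p under 0.05 the same counts were 0 and 2, against 8.47% higher and 8.68% lower of all. Uhrf1, which guides Dnmt1 to newly copied DNA, read 28.4, 24.6 and 35.3 on the EGFP-high arrays against 156.9, 67.4 and 122.9 on the EGFP-negative arrays (log2 -1.42, SE 0.28, adjusted p = 0.0214). Satb1, an organiser of chromatin loops, read 188.3, 72.2 and 75.7 against 346.8, 395.9 and 434.8 (log2 -1.75, SE 0.30, adjusted p = 0.0103). Neither pair of groups overlapped, and EGFP-high replicate 1 was the highest of its group for Satb1. Uhrf1 passed the filter only through the EGFP-negative group, so its call and its part in the 4.88% give no independent support for a fall. Its EGFP-high mean of 29.4 was under the filter level, with 1 of 3 arrays above the range of the bacterial controls, so the size of its difference depends on the pseudocount, and its call was lost with 4 of the 6 arrays left out in turn (adjusted p up to 0.0882, without EGFP-negative replicate 3). That of Satb1 was lost with 1 (0.0572, without EGFP-high replicate 3). Of 15 histone and histone chaperone genes 0 passed in the limma fit and the median was -0.27. At an unadjusted p under 0.05 there were 1 higher and 5 lower (6.67% and 33.3%, against 8.47% and 8.68% of all tested probe sets). With the block 1 was higher and 2 lower (6.67% and 13.3%, against 5.13% and 5.31%). Hira, lower in both counts, passed the filter only through the EGFP-negative group. Its EGFP-high mean was 27.4, with 0 of 3 arrays above the range of the bacterial controls.

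Markers of dividing cells were mostly lower in EGFP-high cells. Of 27 tested proliferation markers 0 were higher and 8 lower in the limma fit (29.6%, against 2.17% of all tested probe sets), and 14 were lower with the block (51.9%, against 5.31%). A negative difference was seen for 26 and a positive one for Plk1 (log2 0.38), with a median of -0.85 over the 27. At an unadjusted p under 0.05 there were 0 higher and 16 lower (59.3%, against 8.68% of all). The number lower was 3 without EGFP-high replicate 2, EGFP-negative replicate 1, EGFP-negative replicate 3 or both arrays of number 1, 5 without EGFP-high replicate 3, 4 with no filter on low values and 5 of 18 tested with a filter at the 60th percentile. Their summed intensity, over 29 genes, was 3800.1 to 4641 on the EGFP-high arrays and 5724.6 to 8200.7 on the EGFP-negative arrays. Those that fell were Top2a, Ccnb2, Aurkb, Mad2l1, Kif11, Kif23, Cks2 and Stmn1, genes of chromosome structure, mitosis and microtubules. Kif23, a motor protein of cell division, read 73.7, 58.1 and 38.3 against 220, 154.7 and 179.9. Of the 8, Top2a and Aurkb passed the filter only through the EGFP-negative group, so the sizes of their differences depend on the pseudocount. Their calls, counted in the 29.6%, give no independent support. The same holds for Aurka, counted among the 16 lower at the unadjusted p. The tested markers of DNA replication ran from a log2 difference of -0.05 for Mcm4 to -0.88 for Rrm2, with none called in the planned fit. With the block Rrm2 and Tk1 were called lower (limma adjusted p = 0.0447 and 0.0437). The part of the proliferation markers in the lower values of Ezh2, Hmgb2, Hmgn1 and Uhrf1 was not tested.

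**Figure D4:**
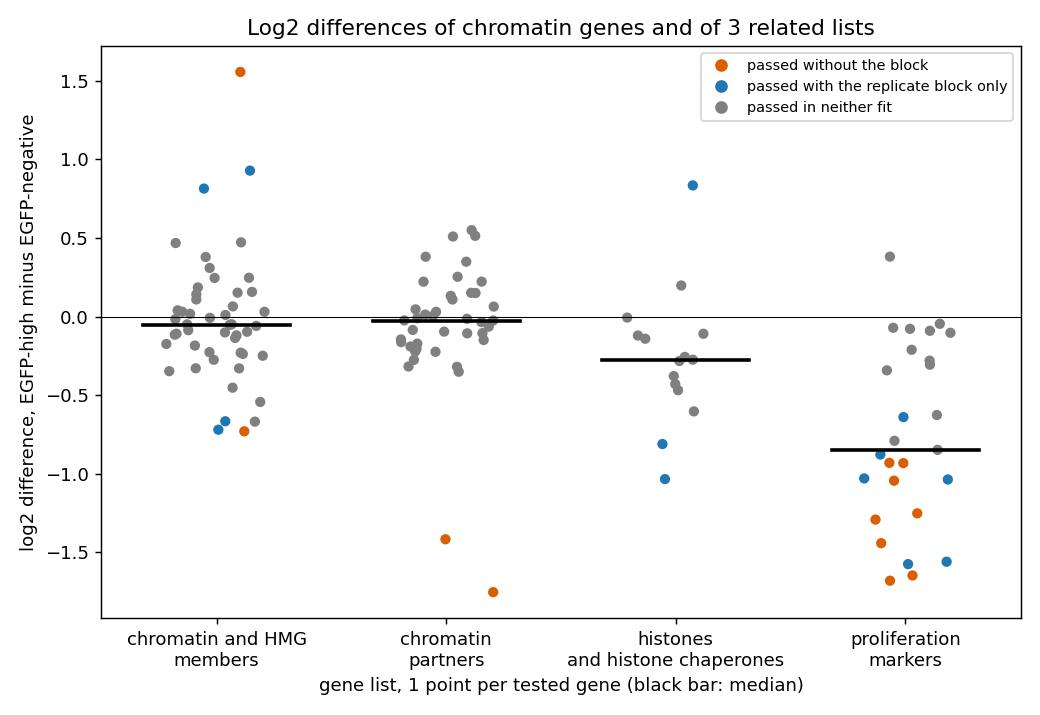
Log2 difference between EGFP-high and EGFP-negative keratinocytes (vertical axis) of the tested genes, 1 point per gene, for 49 chromatin and HMG genes, 41 chromatin partners, 15 histone and chaperone genes and 27 proliferation markers, with the median of each list as a black bar. The medians were -0.05, -0.02, -0.27 and -0.85, and the proliferation markers held 8 of the genes that passed without the block.

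Facts of the whole series bear on these values as follows. Cd34, the surface marker of bulge cells, read 1338.8 to 1579 on the EGFP-high and 29.4 to 40.9 on the EGFP-negative arrays, while the probe sets of Krt15, Krt5 and Krt14, the keratins that define these cells, were below the filter, so the array does not check the sort through them. Itga6, the gene of the α6 integrin on which both groups were sorted, was lower in EGFP-high cells, at 485.1, 405.6 and 585.3 against 1178.1, 1050 and 1371.4 (log2 -1.26, SE 0.18, limma adjusted p = 0.00449). Correlations of whole arrays were 0.922 to 0.948 inside the groups and 0.839 to 0.905 across them. Among other cell types, the summed intensity of 5 melanocyte markers was 308 to 479 on EGFP-high and 258.5 to 290.0 on EGFP-negative arrays. Mitf was called higher, at 155.6, 103.1 and 113 against 41.5, 53.5 and 42.2, and each of the other markers overlapped between the groups. Dct (log2 -0.07) and Pmel (log2 0.49) were not called, and Tyr and Tyrp1 were below the filter. Sums of markers of T cells, leukocytes, Langerhans cells and macrophages, fibroblasts, endothelial cells and differentiated keratinocytes overlapped between the groups, and Ptprc, Cd3d, Cd3e, Cd3g and Cdh5 were below the filter. Among the T cell markers, Thy1 was called lower, while Cd3d and Cd3e read higher on every EGFP-high array than on every EGFP-negative array. Cd3d read 18.6, 22.4 and 28.7 against 2.2, 7.2 and 7.6, and Cd3e 27.7, 28.7 and 135.4 against 20.8, 19.5 and 21.7. For each, only 1 EGFP-high array was above the range of the bacterial controls. Cd3g and Cd2 overlapped between the groups. Within same-numbered arrays the differentiation keratins Krt1 and Krt10 were lower on every EGFP-high array. Krt1 read 3468.1, 711.5 and 570.2 against 5336.9, 2939.1 and 1824.5 (log2 -1.43, limma adjusted p = 0.292, and 0.00708 with the block). Krt10 had a log2 difference of -0.96 (limma adjusted p = 0.241, and 0.0538 with the block). Of the other differentiation markers, Lor and Flg differed in both directions between same-numbered arrays (log2 -2.8e-05 and -0.12). Ivl was below the filter. The part of these cells in the chromatin genes was not tested. In such sorted bulk samples fewer cells of a type and less RNA per cell cannot be told apart.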

How the data were processed

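The members and gene lists were chosen with earlier results of these data known. The authors deposited 1 linear intensity per probe set and array for 6 arrays (12488 rows, 66 of them controls, left out); with 2% trimmed from both ends, all 6 array means were 150.1, so a scaling preceded the deposit. The software is not given in the sources used here, and no read depth applies: the number of arrays limits precision. The platform annotation paired 10833 probe sets with 1 symbol, 396 with several and 1193 with none. Intensities were analysed as log2(value + 19.3), the 25th percentile of values above 0, which understates changes of low genes. Probe sets with a mean above the 40th percentile (near an intensity of 44.5) were tested with limma 3.58.1 in R 4.3.3 (lmFit, eBayes with an intensity trend, two-sided, Benjamini-Hochberg over 7453 probe sets, threshold 0.05, 4 residual and 4.96 prior degrees of freedom), after a check on simulated data. The probe set of highest mean log2 value stood for a gene, and a level was set against 15 bacterial control probe sets (95th percentiles 25.9 to 43.95). Per-array values are given for members past the threshold in either fit and the 5 with the highest means. They are also given for the one of each family with the largest difference. For Smarcd2, Chd7 and Brd1, which meet these rules, only log2 differences are given. Other members were added after their values were seen. Groups and replicate numbers come from the titles. Between same-numbered arrays the deviations from group means had correlations of 0.336, 0.368 and 0.305, and between others -0.0629 or below. Deviations cancel within a group, so positive values between same-numbered arrays bring negative ones between others, which add no separate support. The labels do not state a pairing, so the planned fit, with its standard errors and confidence intervals, leaves the replicate number out. A fit with the replicate block was read beside it and is given where it changes a call. Pair ratios were compared by exact permutation over the arrays, which cannot decide for pairs chosen after their values were seen. Alternatives varied the pseudocount, filter, scaling, trend, block and arrays.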

Additional observations from a re-analysis of the deposited data

How the results depend on the processing

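Over 15 alternatives for all fits, with 1 more for member probe sets, the count of probe sets called among all tested was 327 to 402 for other pseudocounts, filters, scalings and no intensity trend, 778 with the replicate block, and 191 to 499 when single arrays were left out (fewest without replicate 3 of the EGFP-high group, 225 without its replicate 2). Member probe sets called higher stayed at 2, or came to 3 with EGFP-high replicate 1, EGFP-negative replicate 3 or both arrays of number 1 (chosen after seeing the data) left out, to 4 with the replicate block, and to 1 without probe sets of a type that can share signal; over single arrays left out the range was 2 to 3. The single member lower, Hmgn1, was 0 with no filter on low values (adjusted p = 0.102), quantile normalization (0.186) or no intensity trend (0.0553), 3 members were lower with the block, and the range over single arrays left out was 0 to 1. Cbx6 kept its call in every alternative run (log2 1.18 to 1.70). Kat2b passed with a filter at the 60th percentile (adjusted p = 0.045) and without EGFP-negative replicate 3 (0.0361). Scaling moved the median of all tested probe sets by -0.053 at most. Signs turned only for genes called in neither fit. With single arrays or both of number 1 left out, their log2 differences ranged as follows: Brd1 -0.28 to 0.071, Brd2 -0.27 to 0.36, Cbx1 -0.22 to 0.15, Cbx5 -0.062 to 0.19, Chd1 -0.070 to 0.086, Dnmt1 -0.19 to 0.092, Eed -0.19 to 0.16, Hdac1 -0.22 to 0.0065, Hdac3 -0.32 to 0.076, Hdac5 -0.090 to 0.15, Kat2a -0.051 to 0.82, Kat7 -0.060 to 0.041, Kdm1a -0.098 to 0.29, Kdm3b -0.13 to 0.13, Kdm6a -0.20 to 0.12, Kmt2a -0.11 to 0.31, Kmt5c -0.22 to 0.12, Sirt2 -0.17 to 0.13, Smarca5 -0.38 to 0.025, Smarcad1 -0.018 to 0.58, Smarcc1 -0.50 to 0.011 and Smarcd2 -0.21 to 0.015. With quantile normalization they turned for Brd2 -0.031, Cbx5 -0.0068 and Chd1 -0.028; with arrays divided by their median for Brd2 -0.029, Cbx5 -0.022, Chd1 -0.042, Eed -0.012 and Hdac5 -0.028; and for the mean of all probe sets of a gene for Cbx1 0.22, Cbx5 -0.082, Dnmt1 0.21, Kat7 0.031, Kmt2a -0.045 and Smarcd2 0.052. The change of the Kat2b to Kat2a ratio ran from -0.0056 (both arrays of number 1 left out) to 1.04. The cause was not tested. Signal near the control level limits Smarcd1, Kat2a, Uhrf1, Hira, Top2a, Aurka, Aurkb and the members below the filter.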
